A study of Mus musculus with 2 samples.

Results

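The genes described here are 9 transcription factors of the AP-1 and immediate early classes: the Fos family (Fos, Fosb, Fosl1, Fosl2), the Jun family (Jun, Junb, Jund), the related factor Atf3 and the zinc-finger factor Egr1. They were chosen by symbol, and all 9 were found among the 27998 genes of the count tables. Their unique molecular identifiers (UMIs, each standing for 1 captured transcript) were compared by cell lineage and library in single-cell RNA sequencing (scRNA-seq) of small skin wounds in mice. The question was whether their expression was shared by all dermal lineages, as in a response to tissue handling, or whether Fosl1 was particular to fibroblasts.

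Fos and Jun proteins belong to the basic leucine zipper (bZIP) family and pair with each other to form AP-1, which binds a short palindromic DNA element. Fos proteins bind DNA only as partners of another bZIP protein, whereas Jun proteins can also pair among themselves. Fos, Fosb, Jun, Junb, Egr1 and Atf3 are classical immediate early genes, whose RNA appears within minutes of serum, growth factor, wounding or stress and is quickly degraded, while Fosl1 (the protein Fra-1) and Fosl2 (Fra-2) are induced later and more lastingly and Jund is expressed constitutively in many cells. Enzymatic dissociation of tissue is known to induce several of these genes in many cell types, and in skin Fra-1 and JunB are also known from keratinocytes, fibroblasts and wound edges.

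The control library came from SM22rtTA; tetO-Cre; R26-Tomato mice and the SM22-SmoM2 library from SM22rtTA; tetO-Cre; R26-SmoM2/Tomato mice, all 4 to 5 weeks old. In both, the promoter of SM22α (the smooth muscle gene Tagln) drives rtTA, which on doxycycline (20 g/kg, begun 1 day after wounding) turns on Cre and thereby the red reporter Tomato, and in the second genotype also SmoM2, an always-active form of the Hedgehog (Hh) receptor component Smoothened. Wounds were taken 3 days after scab detachment, the epidermis was removed after EDTA incubation (20 mM, 37 °C, 1 h per the labels), the dermis was digested with collagenase, and Tomato+ cells were sorted. There was 1 library per condition, each from the pooled wounds of several mice, so no test between conditions was possible; all intervals are 95%, cover counting error only, and leave the spread between mice unknown.

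After filtering, 2856 of 2878 control cells with 30103855 UMIs and 1792 of 1802 SM22-SmoM2 cells with 17814222 UMIs were kept, with median depths of 8608 and 8838 UMIs per cell. Clusters were named from lineage markers as fibroblast-like (1089 control and 1048 SM22-SmoM2 cells), endothelial-like (702 and 270), Schwann-like (678 and 294), muscle-like (273 and 94) and immune-like (82 and 33), called by the plain lineage names from here on. The sorted cells were thus not all of the smooth muscle or myofibroblast kind that the promoter is named for. A further cluster of 50 SM22-SmoM2 cells with Wif1, Rspo3 and Alpl among its leading genes had only 2 of 6 fibroblast markers raised and was left unnamed. The summed level of 6 immune markers was 32.8 CPM (counts per 1000000 UMIs) in control fibroblasts and 23.2 CPM in SM22-SmoM2 fibroblasts, and that of 6 keratinocyte markers was 60.0 and 63.6 CPM. The 6 fibroblast markers summed to 36883 and 21385 CPM in these cells.

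Among the members, 7 had a promoter matched in the RefSeq promoter table (all but Fosl1 and Egr1), and the 250 bases before the start site of the 3 whose stretch held a searched motif are shown, since these letters are known to be bound by bZIP proteins. Capitals mark the CRE core TGACGT (searched on both strands) in Fos and Atf3 and the element TGACATCA in Jun, and a match is a description of the letters, not a shown site of binding.

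Fos: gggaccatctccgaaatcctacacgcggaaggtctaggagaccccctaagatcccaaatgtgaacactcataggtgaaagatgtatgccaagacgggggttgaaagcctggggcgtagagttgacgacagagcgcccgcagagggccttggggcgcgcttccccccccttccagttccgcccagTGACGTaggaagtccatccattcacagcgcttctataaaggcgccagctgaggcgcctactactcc
Jun: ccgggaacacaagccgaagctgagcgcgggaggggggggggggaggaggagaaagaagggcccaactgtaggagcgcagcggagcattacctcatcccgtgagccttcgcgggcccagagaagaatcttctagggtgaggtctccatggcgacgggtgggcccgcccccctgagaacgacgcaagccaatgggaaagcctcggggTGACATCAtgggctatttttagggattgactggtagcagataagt
Atf3: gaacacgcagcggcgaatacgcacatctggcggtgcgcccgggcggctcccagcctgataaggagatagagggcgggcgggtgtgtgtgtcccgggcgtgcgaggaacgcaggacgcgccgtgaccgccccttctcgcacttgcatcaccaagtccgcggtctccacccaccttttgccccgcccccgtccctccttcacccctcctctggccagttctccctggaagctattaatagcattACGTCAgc

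These stretches lie on GRCm38.p6 at chr12:85473640-85473889 on the plus strand (Fos), chr4:95052223-95052472 on the minus strand (Jun) and chr1:191183334-191183583 on the minus strand (Atf3). The CRE core ended 61 bases before the start of Fos and 3 bases before that of Atf3, and the Jun element ended 38 bases before the start of Jun. The Atf3 start of the promoter table is an internal one, inside the gene span given below. The same holds for Fosl2, whose window ran from 32136222 to 32136471. The Jund window ran from 70697489 to 70697738 and ended before the Jund span given below. The CRE core stood in 6.47% and TGACATCA in 2.93% of all 32851 promoters of the same length. The AP-1 element TGANTCA (6.75% of promoters) and the CArG box (1.47%) were not in this window of any of the 7 members, which says nothing of elements farther away.

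On GRCm38 the genes lie on chromosome 12 from 85473890 to 85477273 (Fos), chromosome 7 from 19302696 to 19310051 (Fosb), chromosome 19 from 5447547 to 5455946 (Fosl1), chromosome 5 from 32135801 to 32157842 (Fosl2), chromosome 4 from 95049034 to 95052222 (Jun), chromosome 8 from 84974484 to 84978718 (Junb) and from 70698949 to 70700616 (Jund), and chromosome 1 from 191170296 to 191218039 (Atf3), and the position of Egr1 is not given here. The annotation has another gene on the opposite strand within Fosl1 (Ccdc85b), Jun (Junos), Junb (Prdx2), Jund (Gm11175) and Atf3 (Gm24748), and the strand counted is not given in the sources used here. Levels are CPM of 3′-end tags and are compared between cells for 1 gene, not between genes.

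The classical immediate early genes were present in all 5 named lineages of both libraries, and in the control library fibroblasts had the lowest level of most of them. Fos, the founding Fos-family member, had 598 CPM in control fibroblasts, 1156 CPM in endothelial, 1117 CPM in Schwann, 1227 CPM in muscle and 855 CPM in immune cells. The SM22-SmoM2 library had 683 CPM of Fos in fibroblasts, 1343 CPM in endothelial, 966 CPM in Schwann, 1289 CPM in muscle and 667 CPM in immune cells. Control fibroblasts were lowest of their library, and among SM22-SmoM2 cells the fibroblast and immune cells were lowest and did not differ beyond counting error.

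Junb, a Jun-family member known as an early wound and stress gene, had 953 CPM in control fibroblasts against 1459 CPM in muscle, 2185 CPM in endothelial, 2192 CPM in immune and 2349.7 CPM in Schwann cells. Junb stood at 1790.0 CPM in SM22-SmoM2 fibroblasts, with 1704 CPM in muscle, 1953 CPM in Schwann, 2324 CPM in endothelial and 2777 CPM in immune cells of that library. Fibroblasts thus stood below all other lineages in the control library, whereas in the other library their level did not differ from that of muscle cells beyond counting error.

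Jun, the Jun-family member that can pair with itself, had 376 CPM in control fibroblasts and 437, 592, 861 and 1187 CPM in control immune, muscle, endothelial and Schwann cells. The SM22-SmoM2 level of Jun was 708 CPM in fibroblasts, 331 CPM in immune, 546 CPM in muscle, 697 CPM in endothelial and 917 CPM in Schwann cells. Fibroblasts were lowest in the control library and not apart from endothelial cells in the other, and Schwann cells were highest in both.

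Atf3, a stress-induced bZIP factor, stood at 74.5 CPM in control fibroblasts and at 92.2 CPM in those of SM22-SmoM2 wounds. All other lineages had more Atf3 in both libraries, from 176 CPM in muscle to 361 CPM in immune cells of the SM22-SmoM2 library, with 349 CPM in control Schwann cells. Fosb, a Fos-family member, had 71.1 CPM in control fibroblasts and 98.3 to 193 CPM in the other control lineages. In SM22-SmoM2 fibroblasts Fosb stood at 175 CPM, within the 87.7 to 241 CPM of the other lineages of that library.

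Egr1, a zinc-finger factor induced through MAP kinases, went another way. In the control library Egr1 had 528 CPM in fibroblasts, 526 CPM in endothelial and 524 CPM in muscle cells, 3 levels that did not differ beyond counting error, and 309.9 and 207 CPM in Schwann and immune cells. Among SM22-SmoM2 cells it was highest in fibroblasts with 686 CPM, above endothelial (558 CPM), muscle (477 CPM), Schwann (303 CPM) and immune cells (263 CPM). Jund, the constitutive Jun-family member, had 932 CPM in control fibroblasts, 1092 CPM in immune, 1026 CPM in Schwann, 905 CPM in endothelial and 638 CPM in muscle cells. Of SM22-SmoM2 cells, fibroblasts had 702 CPM of Jund, Schwann cells 830.4 CPM, endothelial cells 788 CPM, immune cells 769 CPM and muscle cells 501 CPM. Muscle cells were lowest in both libraries.

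**Figure D1:**
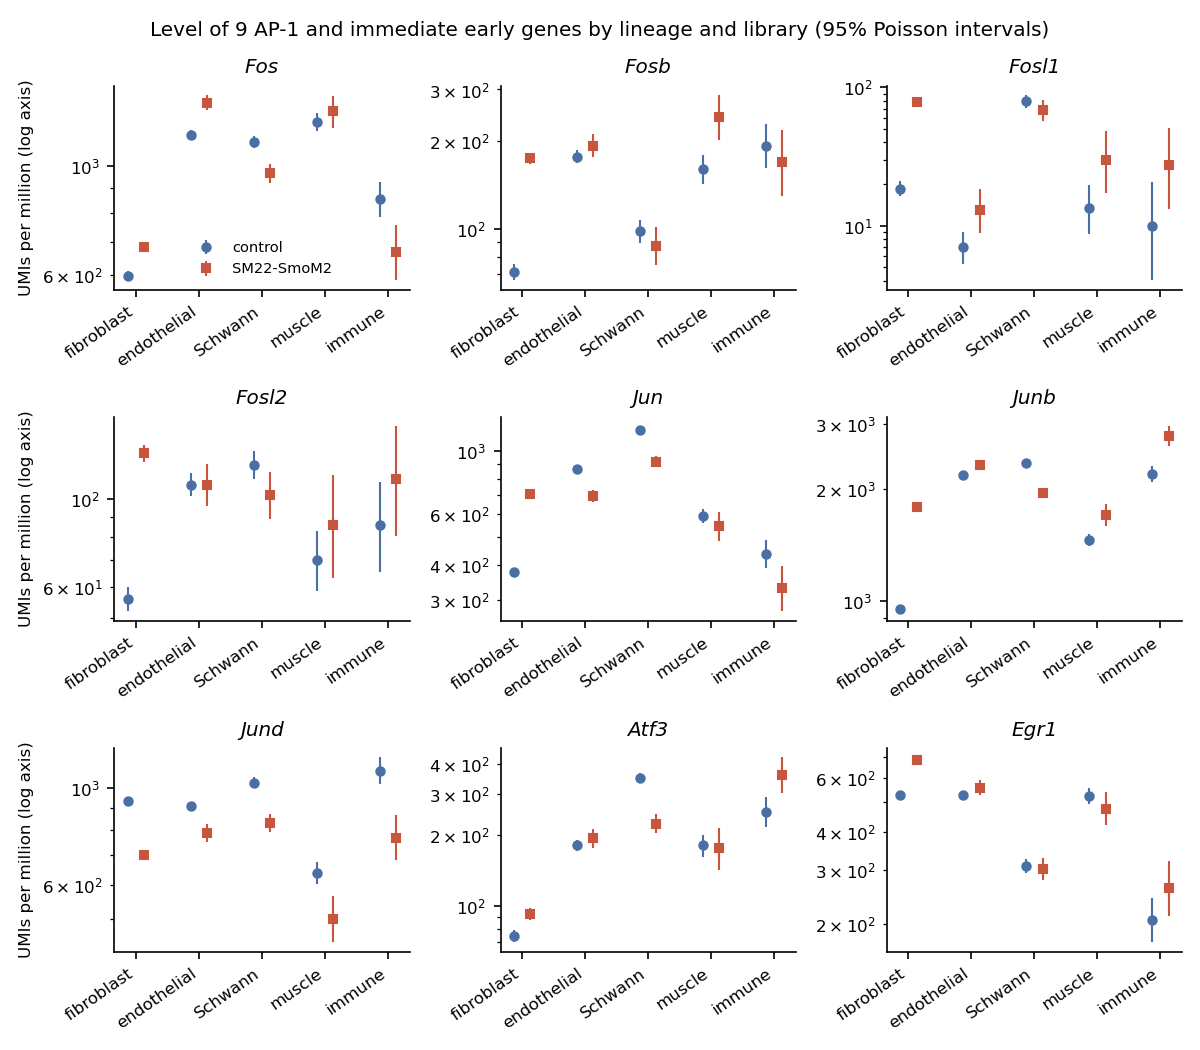
Level of each of the 9 genes in CPM (log axis, 95% Poisson intervals) in 5 lineages of the control (circles) and SM22-SmoM2 (squares) libraries. Fibroblasts had the lowest control level of Fos, Fosb, Fosl2, Jun, Junb and Atf3, while Fosl1 was highest in Schwann cells of the control library and in fibroblasts and Schwann cells of the other.

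Fosl2, a late Fos-family member, had 55.8 CPM in control fibroblasts, the lowest of the control lineages, and 129.9 CPM in SM22-SmoM2 fibroblasts, the highest of that library, although immune cells with 112 CPM did not differ from them beyond counting error. The other lineages had 69.9 to 122 CPM of Fosl2 in the control library and 86.0 to 112 CPM in the SM22-SmoM2 library.

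Fosl1 did not bear out the name of a fibroblast-specific gene. In the control library Fosl1 was highest in Schwann cells, the glia of peripheral nerves, with 79.0 CPM (373 UMIs). It had 18.5 CPM (261 UMIs) in fibroblasts, 13.3 CPM in muscle, 10.0 CPM in immune and 6.95 CPM in endothelial cells. Control fibroblasts and muscle cells did not differ beyond counting error (log2 ratio 0.47, interval -0.12 to 1.13). Neither did neighbours among muscle, immune and endothelial cells. SM22-SmoM2 fibroblasts had 78.6 CPM of Fosl1 (954 UMIs) and Schwann cells of that library 67.9 CPM (137 UMIs), a log2 ratio of 0.21 with an interval from -0.05 to 0.48. Muscle (29.9 CPM), immune (27.4 CPM) and endothelial cells (13.0 CPM) were lower, with neighbours among these 3 not apart beyond counting error.

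By shares of all Fosl1 UMIs of a library, fibroblasts held 35.5% (32.0 to 39.0%, Clopper-Pearson) in the control library, where they gave 46.9% of all UMIs. They held 79.2% (76.8 to 81.4%) in the SM22-SmoM2 library, where they gave 68.1%. The control Fosl1 share was 19.1% after thinning to 1500 UMIs per cell and 21.2% by means of per-cell CPM. Each cell then counts alike, and fibroblasts were 38.1% of kept control cells. Schwann cells held 50.7% of control Fosl1 UMIs from 15.7% of all UMIs, and 11.4% of SM22-SmoM2 Fosl1 UMIs from 11.3% of all. All 3 Schwann clusters had Fosl1, with control levels from 38.9 to 93.1 CPM and SM22-SmoM2 levels from 53.4 to 95.4 CPM, so the Schwann level did not come from a single cluster.

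After each cell was thinned to 1500 UMIs to remove depth differences, a Fosl1 UMI was found in 1.84% of control fibroblasts (1.13 to 2.82%) and in 10.3% of SM22-SmoM2 fibroblasts (8.53 to 12.3%). The Schwann shares were 9.14% and 7.14%, and the endothelial shares, the reference for free RNA, were 1.14% (0.49 to 2.23%) and 1.85% (0.60 to 4.27%). The share in control fibroblasts lay within the endothelial interval, and the shares in SM22-SmoM2 fibroblasts and in Schwann cells lay above it. Endothelial Fosl1 was itself uneven, with 35 of 57 control UMIs in cluster 7 (14.6 CPM, against 2.59 and 2.96 CPM in clusters 5 and 10), and over all UMIs control fibroblasts (18.5 CPM, 16.3 to 20.9) stood above endothelial cells (6.95 CPM, 5.26 to 9.005). Without thinning, 12.8% of control and 32.6% of SM22-SmoM2 fibroblasts had a Fosl1 UMI, at median depths of 12475 and 11187 UMIs, against 7.41% and 8.52% of endothelial cells at 9424 and 7263 UMIs. At most 10 and 13 Fosl1 UMIs were seen in a fibroblast of either library, and the 10 control fibroblasts with the most held 24.5% of that library's fibroblast Fosl1 UMIs.

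Fos and Fosl1 did not share 1 ratio across lineages. For every 100 Fos UMIs there were 3.09 Fosl1 UMIs (2.73 to 3.50) in control fibroblasts and 11.5 (10.7 to 12.3) in SM22-SmoM2 fibroblasts, 7.07 and 7.03 in Schwann cells, and 0.60 and 0.97 in endothelial cells.

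Set against the pooled endothelial, Schwann, muscle and immune cells, 7 of 9 members were lower in control fibroblasts with intervals below 0, Jund spanned 0 (log2 ratio 0.02, interval -0.01 to 0.06) and Egr1 was higher (0.24). Among SM22-SmoM2 cells 5 members were lower and Fosb, Fosl1, Fosl2 and Egr1 were higher. How many of all genes had such intervals was not counted, so these counts are descriptions. Fosl1 had a log2 ratio of fibroblasts over the other lineages of -0.69 (-0.91 to -0.47) for control cells and 1.10 (0.88 to 1.33) for SM22-SmoM2 cells, while the median of the other 8 members was -1.01 and -0.10. The sign of the Fosl1 value hung on Schwann cells and on 2 fibroblast sub-clusters described below. Without Schwann cells among the other lineages it was 1.16 for control and 2.18 for SM22-SmoM2 cells. Schwann cells were left out after their high Fosl1 level was seen, so a higher value was fixed beforehand. Without sub-clusters 5 and 7 the Fosl1 value was -0.57 for SM22-SmoM2 cells. That pair was picked for its Fosl1 level, so a lower value was fixed beforehand. The control sub-clusters with the most Fosl1 were kept. None of the 9 members was at least 4-fold over every other lineage in both libraries, a pattern that 1.31% of 13052 genes had.

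Per cell, control fibroblasts had the fewest immediate early UMIs of the 5 lineages. The summed UMIs of Fos, Fosb, Jun, Junb, Egr1 and Atf3 at 1500 UMIs per cell had a median of 2 in control fibroblasts (10th to 90th percentile 0 to 10) and 5 in SM22-SmoM2 fibroblasts (0 to 14). The medians were 7 and 7 in endothelial, 8 and 6 in Schwann, 5 and 5 in muscle and 6 and 6 in immune cells. No such UMI was found in 18.9% of control and 10.5% of SM22-SmoM2 fibroblasts, against 1.92 to 8.42% of endothelial, Schwann and muscle cells. The sum varied widely among cells of a lineage, with a variance 3.38 to 4.94 times the mean in the named lineages.

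Between the libraries, fibroblasts had more of 8 of the 9 members in SM22-SmoM2 wounds, with intervals above 0, and less Jund. The share of all genes with intervals clear of 0 was not counted, so this count is a description. The interval of Atf3 held 0 in male cells alone (0.12, from -0.02 to 0.26) and after thinning (0.21, from -0.17 to 0.59), and that of Fos held 0 in the sub-clusters both libraries shared (0.04). Fosl1 had the highest ratio, from 18.5 to 78.6 CPM, a log2 ratio of 2.09 (1.89 to 2.29). Fosb went from 71.1 to 175 CPM (1.30, interval 1.19 to 1.40) and Fosl2 from 55.8 to 129.9 CPM (1.22, interval 1.09 to 1.34). Fosb was at 0.90 (0.59 to 1.21) after thinning to 1500 UMIs per cell. As reported, these 3 were past 2-fold, all upward, where 7.35% of 14144 genes were at least 2-fold higher and 7.59% at least 2-fold lower. The 3 genes are all of the Fos family.

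Jun and Junb stood just under that mark with log2 ratios of 0.91 (0.86 to 0.96) and 0.91 (0.88 to 0.94). Egr1 (0.38), Atf3 (0.31) and Fos (0.19) were higher by less, and Jund was lower by 0.41 (log2 ratio -0.41, interval -0.45 to -0.37). The median over the 9 members was 0.91, beside -0.07 over all genes.

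The higher levels were mostly not seen in the other lineages, whereas Jund was lower in all 5, with log2 ratios of -0.20 in endothelial, -0.31 in Schwann, -0.35 in muscle and -0.51 in immune cells and all intervals below 0. In endothelial cells the members ranged from -0.31 (Jun) to 0.91 (Fosl1, 57 and 31 UMIs), with a median of 0.09 and none past 2-fold, where 7.09% of genes were. In Schwann cells all 9 log2 ratios were below 0 as reported, from -0.64 (Atf3) to -0.03 (Egr1), 6 of them with intervals below 0. Their median was -0.25, beside -0.08 over all genes in Schwann cells. Egr1 there reached 0.15 under another processing setting. The shares of all genes with ratios or intervals below 0 were not counted. No member was past 2-fold in Schwann cells, where 8.26% of genes were. In muscle cells only Fosl1 was past 2-fold (log2 ratio 1.17, interval 0.16 to 2.13, from 25 and 16 UMIs), where 3.73% of genes were at least 2-fold higher and 8.32% at least 2-fold lower, and the median was 0.07. Muscle cells also had more Fosb (0.59, interval 0.28 to 0.89) and Junb (0.22, interval 0.11 to 0.33). Immune cells, with 82 and 33 cells, had a median of 0.34, more Atf3 (0.52) and Junb (0.34) with intervals above 0, less Fos (-0.36) and Jun (-0.40) with intervals below 0, and a Fosl1 ratio of 1.45 from 7 and 10 UMIs whose interval held 0. Over all UMIs, Fosl1 was higher in the SM22-SmoM2 library in endothelial and muscle cells with intervals above 0, at levels of at most 29.9 CPM. Shares of cells after thinning did not show this beyond counting error. A Fosl1 UMI was then found in 3 of 273 control and 0 of 94 SM22-SmoM2 muscle cells. The endothelial shares were 1.14% (0.49 to 2.23%) and 1.85% (0.60 to 4.27%). Without thinning, the 10 endothelial cells with the most Fosl1 held 18 of 31 SM22-SmoM2 UMIs and 15 of 57 control UMIs. Counting intervals do not cover such unevenness among cells. The fibroblast markers summed to 545 and 517 CPM in control and SM22-SmoM2 endothelial cells. They summed to 2212 and 2503 CPM in muscle and to 2168 and 3641 CPM in immune cells. The part of free fibroblast RNA in these Fosl1 levels was not tested. Over the 4 other lineages pooled, the Fosl1 log2 ratio was 0.30 (0.05 to 0.54). Fos (0.01), Fosb (0.04), Fosl2 (-0.04), Junb (0.00) and Egr1 (-0.04) had intervals that held 0. Jun (-0.30), Jund (-0.25) and Atf3 (-0.13) had intervals below 0. The lineage mix of this pool differed between the libraries. Schwann and endothelial cells gave 4721461 and 8201228 UMIs in the control library, and 2018257 and 2378317 in the other. Within Schwann cells, the highest of the pool in Fosl1, the Fosl1 ratio was -0.22 (-0.51 to 0.07). The part of the mix in the pooled ratios was not tested.

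**Figure D2:**
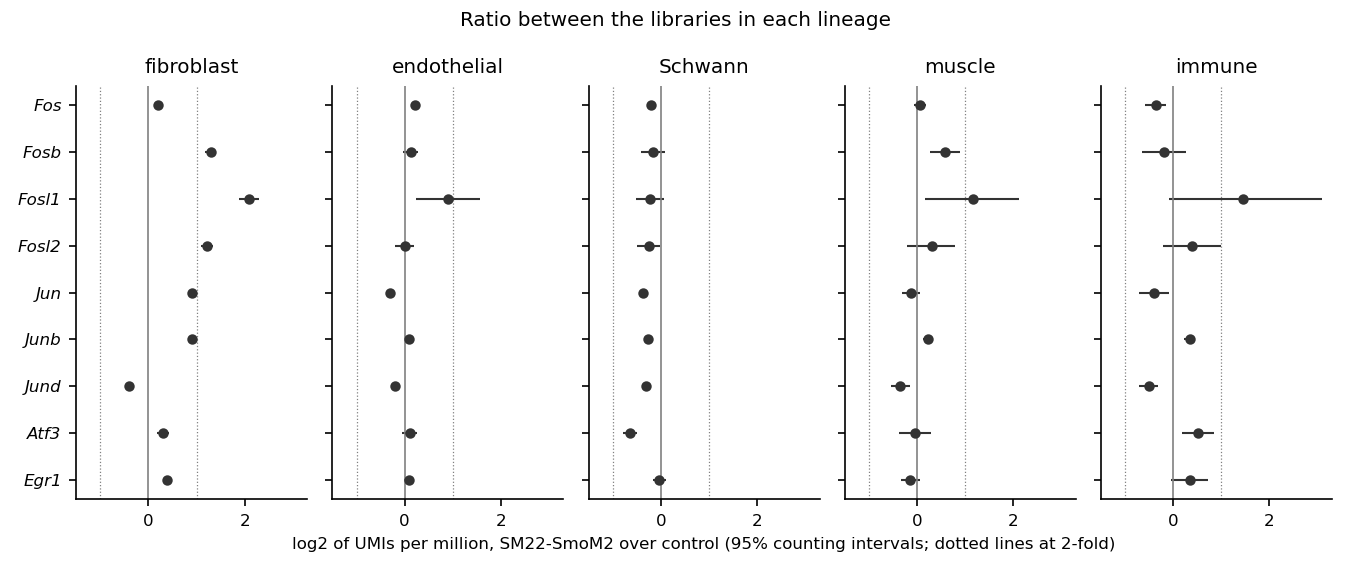
Log2 ratio of SM22-SmoM2 over control (CPM, 95% counting intervals) of the 9 genes in 5 lineages, with dotted lines at 2-fold. In fibroblasts Fosb, Fosl1 and Fosl2 lie beyond the upper 2-fold line and Jund is the only gene below 0, while in Schwann cells all 9 points are below 0.

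Fibroblasts of the libraries lay for the most part in different sub-clusters. Of 13 sub-clusters, formed without the 9 members or the related lists among the clustering genes, only sub-clusters 1 (Crabp1, Igfbp2 and Prss35 among the leading genes) and 2 (Mmp3, Ctla2a) had at least 50 cells of each library. Control cells filled sub-clusters 3 (Nov, Dlk1, Eln; 255 of 259 cells), 10, 11, 12 and 13, and SM22-SmoM2 cells filled 4 (Penk, Wif1, Mest; 218 of 229), 5 (Areg, Mmp13, Il1rl1, Hmox1; 171 of 178), 6 (Sfrp5, Cldn1; 105 of 136), 7 (Egfl6, Wif1; 122 of 123) and 9 (Egfl6, Wif1, Dkk1; 107 of 110). Apart from sub-cluster 6, with 31 control cells, condition and sub-cluster cannot be told apart for these, and the values that follow are descriptions. In sub-cluster 6 the control cells had no Fosl1 UMI, which allows up to 12.4 CPM, and the SM22-SmoM2 cells had 34 (27.5 CPM), Junb was at 907 and 1818 CPM, Egr1 at 563 and 1023 CPM, and Fos at 1103 and 1098 CPM. Sub-cluster 8 had 32 control and 86 SM22-SmoM2 cells, with 2 and 76 Fosl1 UMIs (3.84 and 64.2 CPM). Junb there was at 463 and 1168 CPM, Egr1 at 211 and 484 CPM, and Fos at 347 and 627 CPM.

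Within sub-clusters, Fosl1 was the most uneven member in both libraries. Over the 8 SM22-SmoM2 sub-clusters with at least 50 cells it ran from 7.41 CPM in sub-cluster 2 to 321 CPM in sub-cluster 7. That was a 43.4-fold range, with 159 CPM in sub-cluster 5 and 64.2 CPM in sub-cluster 8. Over the 6 control sub-clusters Fosl1 ran from 1.20 CPM in sub-cluster 10 to 49.6 CPM in sub-cluster 12, with 42.0 CPM in sub-cluster 3. Sub-clusters 8 and 12 were cycling cells, with summed cycling markers of 1988 CPM (8, SM22-SmoM2) and 1964 CPM (12, control). The other members ranged 1.76-fold to 6.09-fold over the SM22-SmoM2 sub-clusters, Jund least and Junb most.

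Sub-clusters 5 and 7 together were 28.0% of SM22-SmoM2 fibroblasts and held 77.5% (74.7 to 80.1%) of their Fosl1 UMIs, 58.8% of Fosl2, 55.3% of Junb and 47.2% of Jun UMIs, but 16.7% of Fos and 27.4% of Egr1 UMIs. In the control library sub-clusters 3 and 12, which share Dlk1 and Nov among their leading genes, were 28.0% of fibroblasts and 34.5% of fibroblast UMIs and held 81.2% (76.0 to 85.8%) of Fosl1, 66.1% of Atf3 and 62.9% of Junb UMIs. Each pair was picked for the highest Fosl1 levels of its library, so its Fosl1 share is a description, and the SM22-SmoM2 pair gave 28.1% of fibroblast UMIs.

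**Figure D3:**
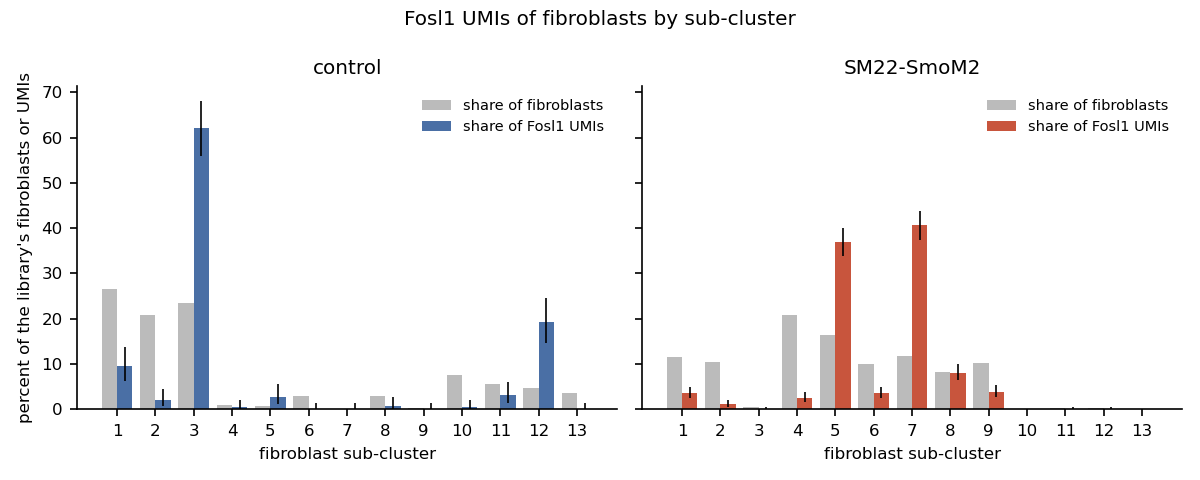
Share of each library's fibroblasts (grey) and of its fibroblast Fosl1 UMIs (coloured, 95% Clopper-Pearson intervals) by sub-cluster, in percent. Sub-clusters 3 and 12 hold 81.2% of the control UMIs and sub-clusters 5 and 7 hold 77.5% of the SM22-SmoM2 UMIs.

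Sub-cluster 7 had the highest Jun level with 1532 CPM, beside 3481 CPM of Junb, 275 CPM of Fosl2 and 519 CPM of Fos. Sub-cluster 5 had 1002 CPM of Jun, 3545 CPM of Junb, 270 CPM of Fosl2 and 289 CPM of Fosb, the highest Junb and Fosb levels, but 344 CPM of Fos, the lowest of the 8. Sub-clusters 4, 6 and 9 had more Fos and less Fosl1 than these, with 948, 1098 and 967 CPM of Fos and 9.85, 27.5 and 38.5 CPM of Fosl1. Fos and Fosl1 thus ran in different directions between these 2 sets of sub-clusters, but not over all. SM22-SmoM2 cells of sub-cluster 1 had 451 CPM of Fos and 23.1 CPM of Fosl1. Control cells of sub-cluster 3 had 653 CPM of Fos beside 42.0 CPM of Fosl1. Egr1 was highest in sub-cluster 6 with 1023 CPM.

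The summed level of the Hh response genes Gli1, Gli2 and Ptch1 in SM22-SmoM2 cells was 20.4 and 24.5 CPM in sub-clusters 1 and 2, 138 CPM in sub-cluster 5, 184 CPM in sub-cluster 7, and 279, 380 and 289 CPM in sub-clusters 4, 6 and 9. The SM22-SmoM2 sub-clusters with the most Fosl1 thus had more of this sum than 1 and 2 and less than 4, 6 and 9. The control library differed. Its sub-clusters with the most Fosl1, 3 and 12, had sums of 7.26 and 2.98 CPM, below the 11.8 and 28.1 CPM of sub-clusters 1 and 2. Sub-cluster 10, with the least control Fosl1 (1.20 CPM), had a sum of 7.17 CPM, near that of sub-cluster 3. Sub-cluster 11 had a sum of 73.5 CPM beside 11.8 CPM of Fosl1. Any link of Fosl1 to these genes was not tested. Median depth (8971 to 12552 UMIs) and mitochondrial share (1.92 to 1.98%) of SM22-SmoM2 cells in sub-clusters 5 and 7 lay within the range of the other large sub-clusters of that library (8341 to 12611 UMIs, 1.65 to 2.04%), and the heat shock sum was 6165 and 6957 CPM in sub-clusters 5 and 7 against 4132 to 6568 CPM in the rest. The control sub-clusters 3 and 12 had median depths of 14942 and 19619 UMIs, above the 10810.0 to 12776 UMIs of the other large control sub-clusters, and heat shock sums of 7025 and 6251 CPM against 3900.0 to 6705 CPM. The part of depth and heat shock genes in the members' levels was not tested.

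**Figure D4:**
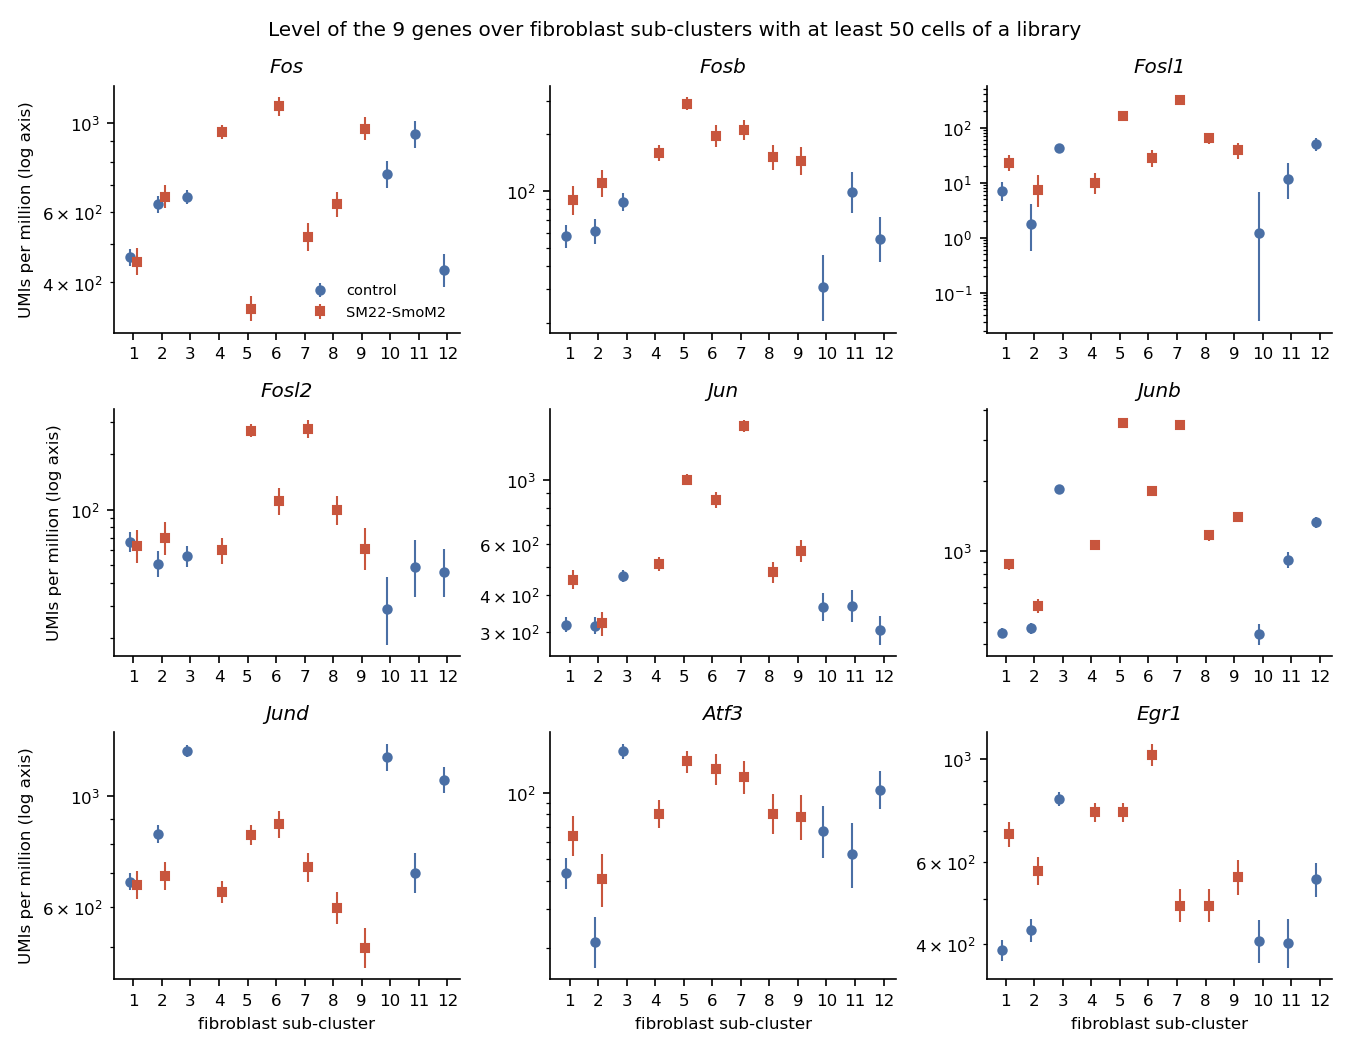
Level of the 9 genes in CPM (log axis, 95% Poisson intervals) in fibroblast sub-clusters with at least 50 cells of the control (circles) or SM22-SmoM2 library (squares). Fosl1, Fosl2, Jun and Junb peak in sub-clusters 5 and 7, where Fos lies at 344 and 519 CPM, against 948 to 1098 CPM in sub-clusters 4, 6 and 9.

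In the sub-clusters that both libraries shared, the difference between the libraries was smaller for most members but did not vanish. Egr1 and Atf3 had higher ratios in both of them than in all fibroblasts, with Atf3 at 0.56 (0.18 to 0.94) in sub-cluster 1. In sub-cluster 1 Junb went from 448 to 880 CPM (log2 ratio 0.98, interval 0.87 to 1.08), Egr1 from 387 to 690 CPM (0.83, interval 0.72 to 0.95), Jun from 317 to 453 CPM (0.52) and Fosb from 57.4 to 89.2 CPM (0.64), while Fos (-0.03), Fosl2 (-0.07) and Jund (-0.02) had intervals that held 0. Fosl1 there went from 7.03 CPM (25 UMIs) to 23.1 CPM (34 UMIs), a log2 ratio of 1.72 (0.93 to 2.53). In sub-cluster 2 Fosl1 had 5 and 10 UMIs (2.06, interval 0.38 to 3.96), and Atf3 (0.94), Fosb (0.84), Fosl2 (0.46), Egr1 (0.42) and Junb (0.31) were higher with intervals above 0. Jun (0.02) and Fos (0.07) of sub-cluster 2 had intervals that held 0, and Jund was lower (-0.28). Over both sub-clusters the median of the 9 members was 0.65, and 1 member, Fosl1, was past 2-fold.

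Without sub-clusters 5 and 7, the fibroblast log2 ratio between the libraries was 0.44 for Fosl1, 0.44 for Fosl2, 0.49 for Jun, 0.25 for Junb and 1.03 for Fosb, which alone stayed past 2-fold. Fos (0.41) and Egr1 (0.40) were then no lower than with them. The pair was picked for the highest Fosl1 levels of SM22-SmoM2 cells, so a fall of Fosl1 was fixed beforehand. The control pair, sub-clusters 3 and 12, was kept, so the libraries were not treated alike. With the 50 cells of the unnamed cluster counted as fibroblasts, Fosl1 was at 2.13 and the same 3 members were past 2-fold.

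Cells with a Fosl1 UMI at 1500 UMIs were compared with those without, using only the UMIs left out by thinning. In SM22-SmoM2 fibroblasts (108 cells with and 940 without), cells with a Fosl1 UMI had 264 against 115 CPM of Fosl2 (log2 ratio 1.20, interval 1.00 to 1.39), 3361 against 1612 CPM of Junb (1.06, interval 1.01 to 1.11) and 1312 against 638 CPM of Jun (1.04, interval 0.96 to 1.13). These 3 of the other 8 members were at least 2-fold higher, where 3.41% of 9615 genes were and the median of all genes was -0.22. Fos was lower in them (443 against 706 CPM, log2 ratio -0.67, interval -0.81 to -0.54), as was Egr1 (-0.38, interval -0.50 to -0.25). Of these 108 cells, 86 were in sub-clusters 5 and 7.

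In control fibroblasts only 20 cells had a Fosl1 UMI, 14 of them in sub-clusters 3 and 12, and the pattern differed. Atf3 (304 against 70.3 CPM, log2 ratio 2.11), Junb (3826 against 895 CPM, 2.10), Fosb (1.36) and Fosl2 (1.27) were higher, Egr1 was higher by 0.66, and Fos did not differ beyond counting error (0.07, interval -0.16 to 0.29). In Schwann cells with a Fosl1 UMI (62 control and 21 SM22-SmoM2 cells) Junb was higher (0.57 and 0.75) and Fos lower (-0.55 and -1.49), with all 4 intervals on 1 side of 0. Junb was thus higher in Fosl1-positive cells of both lineages and both libraries, and Fos was higher in none of them beyond counting error. Ratios over all genes were summarized only for SM22-SmoM2 fibroblasts, so the values of control fibroblasts and Schwann cells are descriptions.

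**Figure D5:**
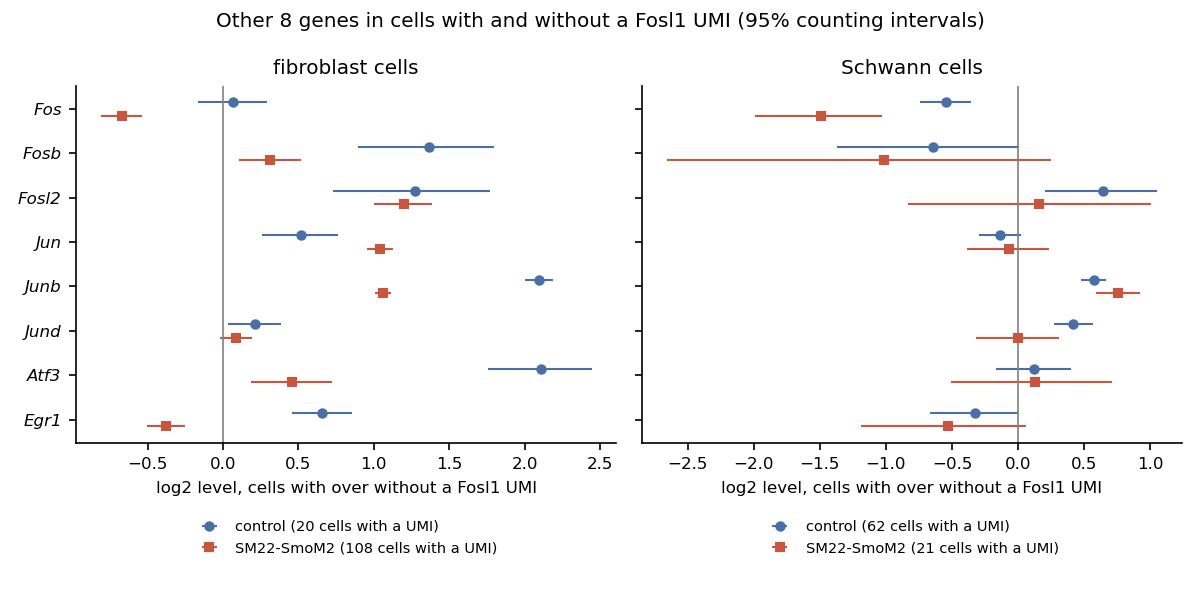
Log2 ratio of the level (95% counting intervals) of the other 8 genes in cells with over cells without a Fosl1 UMI, in fibroblasts and Schwann cells of each library. Junb lies right of 0 in all 4 groups, and Fos lies left of 0 in 3 of them and spans 0 in control fibroblasts.

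Of the genes most like Fosl1, measured as Pearson's r of log2 CPM with 10 CPM added, Klf5 (0.98), Pex5l (0.93), Slc26a7 (0.91), Mns1 (0.91) and Nab2 (0.91) led over 10 points of 5 lineages in 2 libraries. Klf5, a zinc-finger factor of proliferating epithelia and mesenchyme, had 16.1 and 99.4 CPM in control and SM22-SmoM2 fibroblasts, 104 and 82.2 CPM in Schwann cells and 5.89 to 6.34 CPM in endothelial cells. Slc26a7, Pex5l and Mns1 were low, with highest lineage levels of 4.45, 13.98 and 11.9 CPM beside the 10 CPM added. Among control fibroblasts Klf5 did not follow Fosl1, with 8.81 and 3.97 CPM in sub-clusters 3 and 12 and 48.5 CPM in sub-cluster 11. Among SM22-SmoM2 fibroblasts Klf5 was highest in sub-clusters 7 and 5 (209 and 202 CPM), with 180 CPM in sub-cluster 6. Over 14 points of fibroblast sub-clusters and libraries, Maff (0.96), Klf9 (0.96), Frat2 (0.96), Crebbp (0.95) and Map2k3 (0.95) led. Among the members, Junb (0.92), Fosl2 (0.83) and Jun (0.80) were most like Fosl1 over sub-clusters and Fos was least like it (-0.40). Over the lineages the likeness was lower for these, with Fosl2 at 0.48, Jun at 0.44 and Junb at 0.09. Fos was at -0.21 there, and Fosb was least like Fosl1 (-0.37). The points share libraries and depth, so these values are descriptions.

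Other genes of the same response were read from lists. Of 36 other immediate early genes in fibroblasts, 7 were at least 2-fold higher, 1 was at least 2-fold lower and the median log2 ratio was 0.47, beside 7.35% higher, 7.59% lower and a median of -0.07 over all genes. Dusp5, a phosphatase of nuclear ERK, was highest (13.5 to 97.4 CPM, log2 ratio 2.85), followed by the bZIP factor Cebpb (159 to 725 CPM, 2.19) and the orphan receptor Nr4a1 (83.2 to 352 CPM, 2.08). Klf2 (-1.14), Nfkbia (-0.51) and Gem (-0.09) were lowest. In endothelial and Schwann cells the list's medians were 0.09 and -0.17, and Dusp5 stood at 54.3 and 54.7 CPM in endothelial and 43.8 and 49.5 CPM in Schwann cells. The list summed in fibroblasts to 6236 CPM (control) and 8654 CPM (SM22-SmoM2), against 12488 and 12949 CPM in endothelial cells.

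Of 14 other bZIP partners, which can pair with Fos or Jun proteins or compete with them, 1 (the small Maf protein Mafk, 17.5 to 50.1 CPM, log2 ratio 1.52) was at least 2-fold higher in fibroblasts and 1 at least 2-fold lower, with a median of 0.26. Among 14 genes this is near the 7.35% and 7.59% of all genes. Maff was at 0.96, and Atf7 (-0.26) and Creb1 (-0.21) were lowest of those with at least 50 UMIs. None of 13 heat shock genes was past 2-fold in fibroblasts or in endothelial, Schwann or muscle cells. In fibroblasts they ranged from -0.68 for Hspb1 to 0.76 for Dnajb1, with Hsp90ab1 at 0.62 and Hspa1a at -0.27. Their summed level was 5442 and 5753 CPM in fibroblasts, 7816 and 7158 CPM in endothelial, 9190 and 8097 CPM in Schwann and 7239 and 6638 CPM in muscle cells of the control and SM22-SmoM2 libraries.

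Known AP-1 target genes went both ways in fibroblasts. Of 20, 4 were at least 2-fold higher, 5 at least 2-fold lower and 11 in between, with a median of 0.20, beside 7.35% higher, 7.59% lower and a median of -0.07 over all genes. The EGF-receptor ligand Areg went from 3.76 to 62.5 CPM (log2 ratio 4.06, interval 3.65 to 4.49), the haem-degrading enzyme Hmox1 from 71.9 to 379.7 CPM (2.40) and the chromatin protein Hmga1 from 2.91 to 10.5 CPM (1.86). The metalloproteinase Mmp10 went from 11.3 to 0.66 CPM (-4.10, 160 and 8 UMIs), the matrix protein Spp1 from 71.0 to 19.2 CPM (-1.89) and the urokinase Plau from 5.74 to 1.89 CPM (-1.60). Areg and Hmox1 were also leading genes of sub-cluster 5, and neither had been used for clustering.

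The 50 cells of the unnamed SM22-SmoM2 cluster had higher levels of most members than any of the 5 whole lineages: 1948 CPM of Fos, 328 CPM of Fosb, 208 CPM of Fosl2, 1675 CPM of Jun, 3863 CPM of Junb and 1312 CPM of Egr1. Their Fosl1 level was 167 CPM (126 to 216, from 57 UMIs), and 16.0% of them (7.17 to 29.1%) had a Fosl1 UMI at 1500 UMIs. Sub-clusters 5 and 7 had more Fosl2, and sub-cluster 7 more Fosl1, but with 344 and 519 CPM of Fos. The summed immediate early UMIs of the unnamed cells at 1500 UMIs had a median of 12, from 1 at the 10th to 35.1 at the 90th percentile. The variance was 9.56 times the mean, so the sums were uneven among these cells, whose median depth was 4704 UMIs. A Fos UMI was then found in 56% of them (41.25 to 70.01%), against 75.6% of endothelial and 71.3% of muscle cells of that library. Fosb, Fosl2, Jun and Junb were not found in more of them, beyond counting error, than in the highest lineage. Egr1 was, with 80% against 50.5% of fibroblasts.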

How the data were processed

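Sorted Tomato+ dermal cells were profiled by the authors with 10x Chromium 3′ v2 kits, 1 library per condition. Per the submitters' processing notes, reads were processed with bcl2fastq and Cell Ranger on mm10; versions are not given in the sources used here. The deposited values are raw UMI counts, not normalized. The barcode list covers the whole kit, so barcodes shared between libraries could not be counted. In the reference annotation 27645 of 27998 gene IDs were found.

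Kept cells had at least 200 genes and at most 10% mitochondrial UMIs. Counts were scaled to 10000 per cell and log-transformed, and 2000 variable genes, without the members and 4 related lists, gave 20 principal components (scanpy 1.11.5). K-means with 50 starts used K = 20, then K = 15 among fibroblasts. A name needed 3 of a lineage's markers at 10 CPM and 1.5 times the median of clusters. Sub-clusters whose leading genes marked another lineage (17 control and 2 SM22-SmoM2 cells) were left out as mixed, as were 15 and 1 keratinocyte cells. Scrublet marked 5 and 11 barcodes, which were kept. UMIs were summed per lineage and library. CPM carry exact Poisson intervals, log2 ratios exact conditional intervals and shares Clopper-Pearson intervals. A count of 0 was replaced by 3 UMIs in ratios, and comparisons over all genes needed 10 UMIs, those over lineages or Fosl1-positive cells 50. Thinning drew 1500 UMIs per cell. The interval calculations were checked on simulated data.

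The genes named are all members, the 3 highest and 3 lowest of the immediate early and AP-1 target lists and the 2 highest and 2 lowest of the other lists among genes with at least 50 UMIs, the 5 most like Fosl1, and leading genes of sub-clusters described. Members, lists and naming thresholds were chosen with earlier results of these data known. Alternatives were a 5% mitochondrial filter, K = 12, Leiden clustering, the lists kept for clustering, averaging per-cell CPM, thinning, doublets left out, male cells alone, another scaling, matched sub-clusters, a minimum of 10 UMIs and a 1.5-fold threshold. Added after values were seen were those with the unnamed cluster as fibroblasts, without sub-clusters 5 and 7, and without Schwann cells.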

Additional observations from a re-analysis of the deposited data

Results flagged for a closer look

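Several members had a log2 ratio of SM22-SmoM2 over control above 0 in fibroblasts and below 0 in another lineage, with both counting intervals clear of 0. With 1 library per condition these differences were not tested. How many of all genes had such opposite intervals was not counted, so the values are descriptions. The widest gap was that of Fosl2, whose fibroblast value was above that of Schwann cells by 1.47. For Jun the fibroblast value was above that of immune cells by 1.31, of Schwann cells by 1.28 and of endothelial cells by 1.22. Against Schwann cells the fibroblast value was also higher by 1.18 for Junb, 0.95 for Atf3 and 0.40 for Fos, and Fos was higher than in immune cells by 0.55.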

How the results depend on the processing

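No paired analysis was possible because each condition had 1 library. In fibroblasts the median log2 ratio of the 9 members was 0.91 as reported, 0.96 with K = 12, 0.95 with Leiden clustering, 0.76 in male cells, 0.98 with median-ratio scaling, 0.65 in matched sub-clusters, 0.95 with the unnamed cluster and 0.41 without sub-clusters 5 and 7. Cells with a UMI of a Y-linked gene and none of Xist were called male. They were 645 of 1089 control and 781 of 1048 SM22-SmoM2 fibroblasts, so the libraries differed in this share. The number of members past 2-fold, 3 as reported, was 2 after thinning, 1 in matched sub-clusters, 1 without sub-clusters 5 and 7, and 5 at 1.5-fold. The Fosl1 log2 ratio of fibroblasts over other lineages in the control library (-0.69) was -1.40 after thinning, -1.21 by per-cell means, -0.44 in male cells and, reversed, 1.16 without Schwann cells. In the SM22-SmoM2 library (1.10) it was 1.42 after thinning and 2.18 without Schwann cells. It was, reversed, -0.57 in that library without sub-clusters 5 and 7, which were picked for high Fosl1. Schwann cells were left out after their high Fosl1 level was seen, so higher values without them were fixed beforehand. The median of the other 8 members in the SM22-SmoM2 library (-0.10) was -0.22 after thinning and -0.50 without sub-clusters 5 and 7. The fibroblast share of Fosl1 UMIs in the control library (35.5%) was 19.1% after thinning, 21.2% by per-cell means and 45.4% in male cells. In the SM22-SmoM2 library (79.2%) it was 83.9% with K = 12, with Leiden clustering or with the unnamed cluster, 76.0% after thinning, 71.3% by per-cell means and 82.9% in male cells. The cause of these shifts was not tested. Of single members' ratios, 282 values stayed within the reported counting interval, 69 moved outside it and none with an interval clear of 0 changed sign. Matched sub-clusters give no value for other lineages. Thinning leaves few Fosl1 UMIs. Precision is limited by few cells in muscle and immune cells, and for Fosl1 in endothelial cells by few UMIs (57 control and 31 SM22-SmoM2).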
